A study of Mus musculus with 21 samples.

Results

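The cytosolic ribosomal protein genes were taken as all protein-coding genes whose symbol has the form *Rpl* or *Rps* with a number (or *Rpsa*, *Rplp0* and their like), without pseudogenes and unnamed gene models. Of the 54232 gene rows counted, 83 had such a symbol and 80 of those were annotated as protein-coding, 49 of the large ribosomal subunit and 31 of the small subunit. *Rps4l*, *Rpl32l* and *Rpl6l* matched the symbol pattern but were annotated otherwise. *Rps3a1*, *Fau* and *Rack1*, which also encode ribosomal proteins, lie outside the pattern and are given beside the members.

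The RNA came from full-grown mouse oocytes at the germinal vesicle stage, taken per the methods from hormone-primed females of 3 to 4 months. Poly(A) RNA was sequenced in 21 libraries of 3 oocytes each, in 6 groups that differ in the alleles of *Kif11*, which encodes a spindle motor, and in the Cre driver. The control group was wt/fl (a wild-type and a floxed allele, 4 libraries). In wt/fl Spo11-Cre (5) the driver deletes the floxed allele in meiosis and leaves the wild-type allele. The fl/del group (4) carried a floxed allele and a constitutive deletion, and fl/del Spo11-Cre (4) the driver as well. Both alleles were floxed in fl/fl Gdf9-Cre (2 libraries) and in fl/fl Zp3-Cre (2 libraries). Spo11-Cre acts in early meiotic prophase, whereas Gdf9-Cre and Zp3-Cre act in the oocytes of follicles. All groups, the wt/fl controls included, carried at least 1 floxed allele. The labels state that each mouse gave 1 or 2 libraries. They do not say which libraries share a mouse, so that p-values measure the spread between libraries. The library names of the fl/fl groups follow another scheme than those of the other 17 libraries, whose number alone is that of the methods, and the set of libraries and the genotype cannot be told apart for fl/fl.

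Ribosomal proteins form the ribosome together with ribosomal RNA. The small subunit reads the mRNA, and the large subunit joins amino acids and holds the tunnel through which the new protein leaves. In mammals most of these proteins come from a single active gene whose mRNA begins with a C and a run of pyrimidines, the terminal oligopyrimidine tract through which nutrient signalling controls translation of the whole family. A few genes have a second copy of related sequence, such as *Rpl39l* and *Rpl10l*, known from male germ cells, and *Rpl3l*, known from heart and skeletal muscle. A growing oocyte makes and stores ribosomes for the embryo and becomes transcriptionally quiet when full grown, so its mRNA at that stage is a stored pool.

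In these oocytes the copies with the largest shares of the counts of their pairs were *Rpl39l* and *Rps27l*. Their coding sequences are shown with those of their partners to show where the copies differ, with the differing bases in capitals. Reads also cover untranslated sequence, which is not shown. *Rpl39* and *Rpl39l* encode a small protein that lines the exit tunnel, and *Rps27* and *Rps27l* a zinc-binding protein of the small subunit. The sequences are those of the principal transcripts of the reference annotation (GENCODE M21, GRCm38).
Rpl39: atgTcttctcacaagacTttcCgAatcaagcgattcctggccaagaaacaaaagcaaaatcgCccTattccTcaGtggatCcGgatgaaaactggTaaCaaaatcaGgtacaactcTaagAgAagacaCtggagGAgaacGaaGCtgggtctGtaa
Rpl39l: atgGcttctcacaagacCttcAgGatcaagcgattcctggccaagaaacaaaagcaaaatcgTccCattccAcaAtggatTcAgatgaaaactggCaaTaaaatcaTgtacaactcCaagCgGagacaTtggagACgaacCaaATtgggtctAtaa
Rps27: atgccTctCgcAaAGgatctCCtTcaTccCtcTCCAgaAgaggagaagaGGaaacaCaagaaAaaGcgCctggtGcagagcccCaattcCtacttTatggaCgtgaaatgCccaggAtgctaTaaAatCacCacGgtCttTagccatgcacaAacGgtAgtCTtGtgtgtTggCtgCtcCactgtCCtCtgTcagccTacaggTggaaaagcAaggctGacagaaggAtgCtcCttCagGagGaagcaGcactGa
Rps27l: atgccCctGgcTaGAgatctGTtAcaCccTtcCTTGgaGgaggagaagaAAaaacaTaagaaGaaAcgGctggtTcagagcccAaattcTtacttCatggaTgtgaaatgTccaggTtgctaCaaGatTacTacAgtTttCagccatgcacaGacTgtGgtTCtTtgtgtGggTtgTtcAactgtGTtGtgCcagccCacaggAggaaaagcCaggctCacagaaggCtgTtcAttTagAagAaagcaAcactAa

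The coding sequences of *Rpl39* (X chromosome) and *Rpl39l* (chromosome 16) have 156 bases, of which 23 differ, yet only 3 of 51 residues differ. Those of *Rps27* (chromosome 3) and *Rps27l* (chromosome 9) have 255 bases, of which 61 differ, and again 3 of 84 residues differ. *Rpl10* and *Rpl10l* differ at 3 of 214 residues, and *Rpl36a* and *Rpl36al* encode the same 106 residues from coding sequences that differ at 39 of 321 bases. Other pairs are less alike. The proteins of *Rpl3* and *Rpl3l* are 76.2% identical, those of *Rpl22* and *Rpl22l1* 70.3% and those of *Rpl7* and *Rpl7l1* 40.7%. Of the 100-base windows of *Rps27l*, *Rpl39l*, *Rpl10l* and *Rpl3l*, 0% were shared with another gene, whereas 98.4% of those of *Rps27* were.

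Levels are given as CPM (a count scaled by the total count of its library) and, between genes, as TPM (a length-scaled abundance, the authors' values, which divide by length). Library totals ran from 7205010 to 18454549 counts, and the members held 67601 to 232668 counts in a library. Of the 80 members, 78 had counts above 0 in every library. *Rpl3l* had 0 counts in all 21 libraries, where 3 counts, the limit a count of 0 allows, would be 0.163 to 0.416 CPM. *Rpl24*, whose protein forms a bridge between the subunits, had 6 counts in all, spread over 4 libraries. 80.1% of the windows of *Rpl24* are shared with other genes and 47.0% of its exon bases lie in exons of other genes, and only uniquely mapped reads were counted, so the count table cannot tell an absent *Rpl24* mRNA from one whose reads were set aside. Intervals and limits of counts cover counting error only.

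In wt/fl oocytes the members spread over more than 2 orders of magnitude in TPM, although the ribosome holds them in near-equal amounts. Among the highest were *Rps29* with 841 ± 125.8 TPM (SD, n = 4), *Rpl5* (728 ± 14.3), *Rplp0* (695 ± 41.2) and *Rplp1* (655 ± 18.3). *Rpl5* encodes a protein that carries the 5S ribosomal RNA into the large subunit, and *Rplp0* and *Rplp1* encode proteins of its stalk, where translation factors bind. *Rpl19* (478 ± 49.2), *Rps27l* (467 ± 126.1) and *Rpl39l* (449 ± 80.7) were also among the highest 8. The median member stood at 116 TPM, with 86.7 for large subunit genes and 125 for small subunit genes. There were 42 members above 100 TPM, 33 between 10 and 100 and 5 below 10.

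At the low end were *Rpl7a* (18.5 ± 11.8 TPM), *Rpl23a* (17.2 ± 4.94), *Rpl27a* (16.99 ± 4.69) and *Rpl22* (14.0 ± 2.34), then *Rpl13a* (3.14 ± 0.494), *Rpl10l* (2.33 ± 2.41) and *Rpl9* (1.68 ± 0.708), with *Rpl24* and *Rpl3l* listed at 0. *Rpl23a* encodes the exit-tunnel protein that contacts the signal recognition particle, and *Rpl22* an RNA-binding protein of the large subunit. In the order of levels, neighbours mostly did not differ beyond their spread, as *Rpl7a*, *Rpl23a* and *Rpl27a* show. The order also depends on the length used. Only 4 of the highest 8 by TPM were among the highest 8 by CPM per kilobase of principal transcript, where *Rps29* led, but 7 of the lowest 8 stayed among the lowest 8. The low values go with shared sequence in part: 35 members share at least 50% of their windows with other genes and had a median of 84.5 TPM, against 143 TPM for the other 45. Of *Rpl9*, *Rpl23a* and *Rpl13a*, 79.2%, 80.0% and 55.2% of windows were shared, but of *Rpl5*, among the highest, 91.1% were. Of the lowest 8 detected members, 5 shared at least 50%, whereas *Rpl22* and *Rpl10l* shared 0% and *Rpl27a* 32.9%. The share of lost reads was not tested, so levels between members are approximate while the same member between libraries is not affected by a loss that all libraries share.

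**Figure D1:**
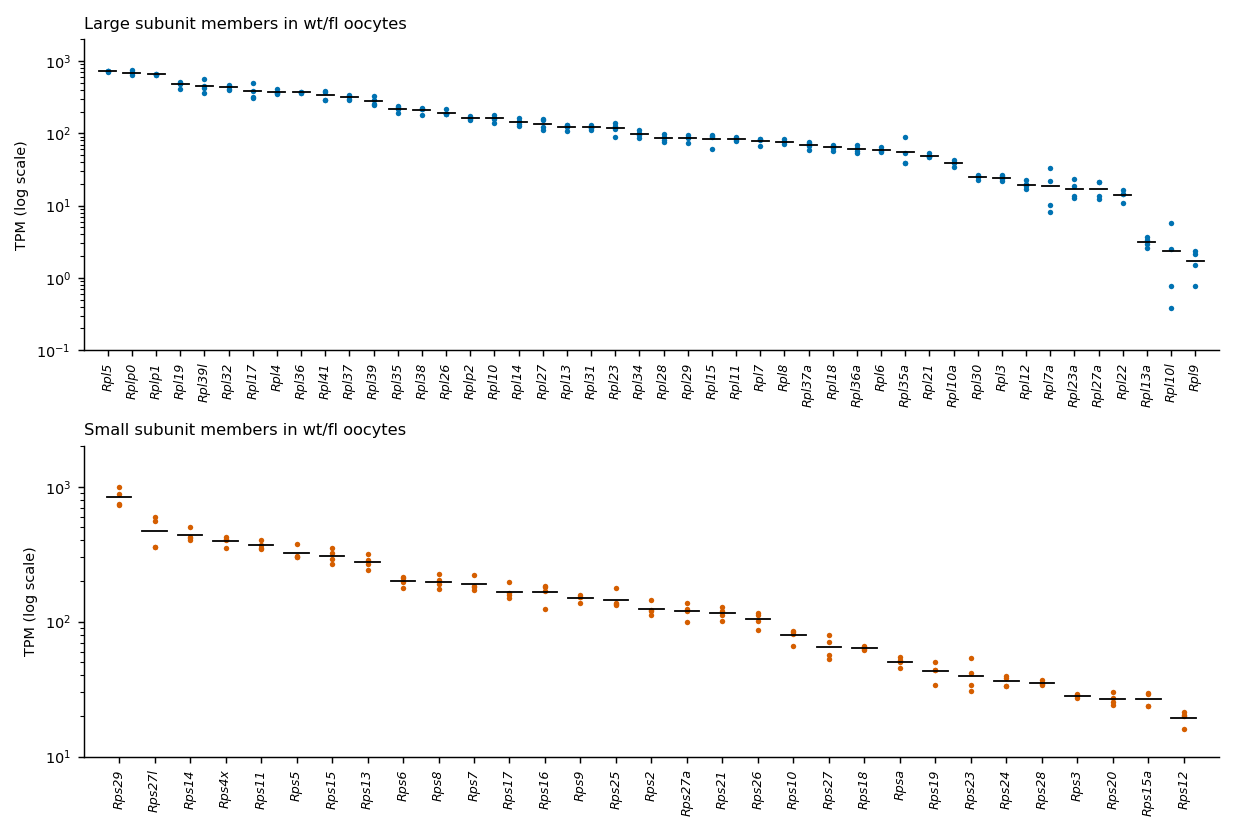
TPM (log scale) of the members reported here that were above 0 in the 4 wt/fl libraries, with each point a library and each line the mean of a gene, large subunit above and small subunit below. Most genes lie between 10 and 1000 TPM, and *Rpl13a*, *Rpl10l* and *Rpl9* lie below 10.

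The ribosomal proteins outside the pattern lay within the range of the members. *Fau*, whose product is cut into a ubiquitin-like part and RPS30, ranged from 163 to 373 CPM over the 21 libraries, and *Rack1*, the signalling scaffold on the small subunit, from 132 to 175 CPM. *Rps3a1* ranged from 49.7 to 86.4 CPM.

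Together the 80 members took up about 1% of counts in all genotypes. They took 1.02%, 0.921%, 1.02% and 0.873% in the 4 wt/fl libraries and 1.056%, 1.08%, 1.01%, 1.05% and 1.28% in the 5 wt/fl Spo11-Cre libraries. The fl/del libraries held 0.953%, 0.986%, 1.19% and 1.05%, and the fl/del Spo11-Cre libraries 0.999%, 1.21%, 1.05% and 1.01%. The 2 libraries of a driver stood far apart, at 0.948% and 1.22% for fl/fl Gdf9-Cre and at 1.27% and 0.826% for fl/fl Zp3-Cre. Relative to the wt/fl mean, the group means were 114.5% ± 11.2 in wt/fl Spo11-Cre (SD, n = 5), 109.1% ± 11.1 (n = 4) for fl/del, and 111.2% ± 10.2 with both del and Spo11-Cre (n = 4). They were 113.0% ± 19.8 with Gdf9-Cre (n = 2) and 109.6% ± 33.0 with Zp3-Cre (n = 2). The shares of wt/fl Spo11-Cre and wt/fl overlapped, with the lowest wt/fl Spo11-Cre library at 1.01% and the highest wt/fl libraries at 1.02%.

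The shares differed more between libraries of a group than between groups, and the members moved together. In wt/fl Spo11-Cre replicate 5, 73 of the 80 members were above their own median over the 21 libraries, in fl/del Spo11-Cre replicate 2, 74, and in fl/fl Zp3-Cre replicate 1, 70. In wt/fl replicate 4 only 3 were, in wt/fl replicate 2 only 5 and in fl/fl Zp3-Cre replicate 2 only 6. The ratio of large to small subunit TPM stayed between 1.47 and 1.68 in all libraries. It was 1.47 to 1.57 in the 5 libraries with the highest member share and 1.58 to 1.68 in the 5 with the lowest. The small subunit part was thus larger where the member share was higher. In each library 3 oocytes were pooled, and a level that differs in all of them and a stronger difference in 1 of them cannot be told apart.

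Other genes moved with the members across libraries. The 5 libraries with the highest member share were also the 5 highest in the share of other short genes, defined as 1916 protein-coding genes with fewer than 1000 exonic bases. They were likewise the 5 highest in the summed CPM of mitochondrial ribosomal protein genes, of other translation genes and of pseudogenes named after ribosomal proteins (301 rows, 982 to 1493 CPM). The 5 libraries with the lowest member share held 5, 5, 4 and 4 of the 5 lowest in these measures. Ribosome biogenesis genes did not follow this order: 0 of the 5 highest libraries and 1 of the 5 lowest were shared. The summed CPM of 12 oocyte markers, with 1 and 0 shared, did not follow it either. That of 18 follicle cell markers, with 0 and 0 shared, ran the other way. It was 408 to 470 CPM in the 5 libraries with the highest member share and 475 to 556 CPM in the 5 with the lowest. The share of other short genes ran from 3.16% to 3.50% in wt/fl and from 3.54% to 4.27% in wt/fl Spo11-Cre, without overlap. Its part in the member values was not tested.

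**Figure D2:**
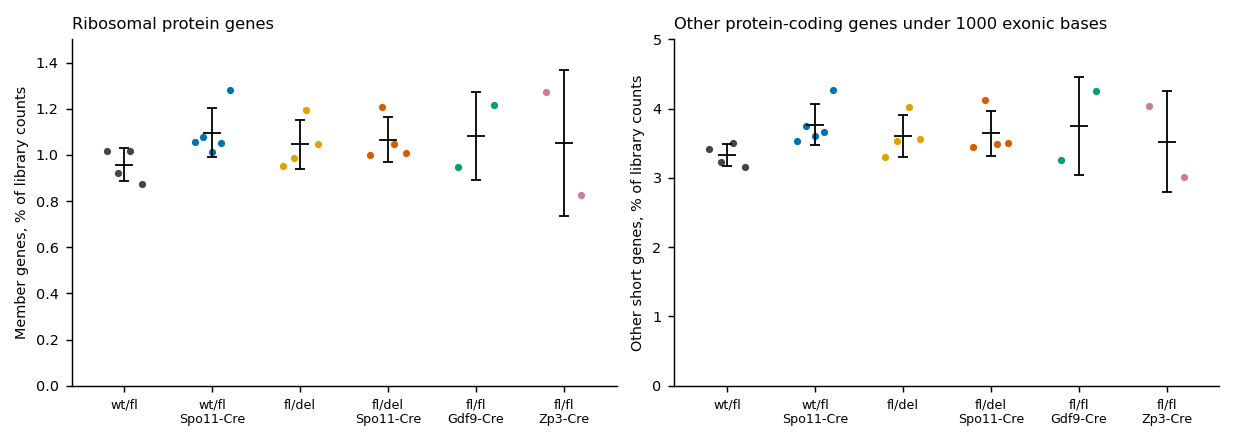
Percent of library counts in the 80 member genes (left) and in other protein-coding genes under 1000 exonic bases (right), by group, with each point a library and the black marks the mean ± SD. The same libraries are high or low on both sides, and wt/fl Spo11-Cre replicate 5 is the highest point on the left at 1.28%.

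All 12 oocyte markers were above 0 in each library, with a sum of 23773 to 30586 CPM. The 18 follicle markers summed to 399 to 563 CPM, of which *Serpine2* made up 318 to 440 CPM, and only *Serpine2*, *Cyp19a1* and *Nr5a2* were above 0 in every library. The defining follicle genes *Foxl2* and *Wt1* were at 0 throughout, and 6 blood markers summed to at most 0.537 CPM. Some granulosa cell genes had their highest value over the 21 libraries in fl/fl Gdf9-Cre replicate 1. There *Inha* was at 5.39, *Hsd17b1* at 2.60, *Amhr2* at 1.30 and *Amh* at 1.12 CPM, on 58, 28, 14 and 12 counts. *Amhr2* was at 0 in all others. *Star* was also highest there, at 4.09 CPM. Other markers of the list were not: *Fshr* was at 0.558, *Cyp19a1* at 70.4, *Nr5a2* at 24.3 and *Serpine2* at 364 CPM. *Inhba* and *Nr5a1* were at 0. The follicle sum of this library was 475 CPM, against a mean of 480 CPM over all libraries. The follicle sum was 482 to 563 CPM in wt/fl and 399 to 504 CPM in wt/fl Spo11-Cre, lower where the members were higher. Its part was not tested. *Kif11*, the targeted gene, was at 23.8 to 43.2 CPM in wt/fl, 17.6 to 30.5 in wt/fl Spo11-Cre, 7.50 to 14.6 in fl/del, and 1.08 to 2.70 in fl/del Spo11-Cre. The Gdf9-Cre libraries had 4.90 and 5.11 CPM of it and the Zp3-Cre libraries 4.27 and 7.95 CPM.

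Whether the groups differed at single members was tested across all genes with edgeR's quasi-likelihood test, in a fit of the 17 libraries of the Spo11-Cre background and in a fit of all 21 libraries for comparisons with fl/fl. A gene was called at an adjusted p (Benjamini-Hochberg over all genes tested) under 0.05. Of the members, 78 passed the filter of a count above 0 in at least 3 libraries in the first fit (all but *Rpl24* and *Rpl3l*) and 79 in the second, where *Rpl24* passed once the fl/fl libraries were included. The comparisons share control libraries and are not independent.

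In wt/fl Spo11-Cre oocytes against wt/fl, 8 of 78 ribosomal protein genes rose, and the other 70 did not pass the test. None was called lower, where 2.19% of all genes were called in either direction and 0.867% were called higher. At an unadjusted p under 0.05 there were 42 members, all higher, against 15.0% of all genes. The median log2 fold change of the members was 0.25, with 73 of 78 above 0, while the median of all genes was 0.03. Small subunit genes gave 5 of the calls from 31 and large subunit genes 3 from 47, with medians of 0.26 and 0.23.

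The called members were *Rps27*, *Rps27a*, *Rpl31*, *Rpl7*, *Rpl28*, *Rps6*, *Rps29* and *Rps4x*, of which *Rpl28* falls outside the rule for named genes and was chosen after its values were seen. *Rps27* (chr3:90212522-90213651, minus strand) was at 34.3, 23.8, 30.5 and 22.2 CPM in wt/fl and at 28.3, 40.9, 40.1, 43.3 and 63.7 CPM in wt/fl Spo11-Cre. It rose by 0.67 ± 0.17 (log2 fold change ± SE, adjusted p = 0.0157, edgeR), the largest change of a called member here, although its lowest wt/fl Spo11-Cre library lay within the wt/fl range. *Rps27a* (chr11:29545846-29548109, minus strand), which encodes a fusion of ubiquitin and a small subunit protein, was at 100, 94.7, 112 and 78.6 CPM in wt/fl and at 163, 143, 107, 104 and 208 CPM in wt/fl Spo11-Cre. It rose by 0.62 ± 0.13 (adjusted p = 0.00556, edgeR), and the ranges overlapped.

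*Rpl31* (chr1:39367842-39371911, plus strand), a protein near the mouth of the exit tunnel, was at 81.6, 75.7, 90.1 and 80.1 CPM in wt/fl and at 107, 117, 95.4, 98.0 and 164 CPM in wt/fl Spo11-Cre, without overlap (0.54 ± 0.12, adjusted p = 0.00673, edgeR). *Rpl7* (chr1:16101295-16104662, minus strand) was at 91.2, 88.5, 73.8 and 89.2 CPM against 106, 108, 108, 138 and 131 CPM, also without overlap (0.49 ± 0.11, adjusted p = 0.00542, edgeR). *Rps6* (chr4:86854660-86857412, minus strand), the small subunit protein that S6 kinase phosphorylates, was at 129, 135, 117 and 137 CPM against 162, 173, 165, 167 and 184 CPM, again apart (0.42 ± 0.10, adjusted p = 0.00857, edgeR). *Rps4x*, on the X chromosome, was at 268.7, 271, 285 and 229 CPM against 310, 336, 299, 328 and 366 CPM (0.34 ± 0.09, adjusted p = 0.0212, edgeR). *Rps29* (0.42, adjusted p = 0.0401, edgeR) and *Rpl28* (0.46, adjusted p = 0.0338, edgeR) had overlapping ranges, of 204 to 284 against 263 to 432 CPM and of 56.6 to 74.98 against 74.7 to 116 CPM.

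The calls depended on wt/fl Spo11-Cre replicate 5, the library with the highest member share, which shares its name prefix with no other library. Without it, 2 of the 8 calls were left, *Rpl7* (0.44) and *Rps6* (0.38), while the log2 fold changes of the others stayed above 0, such as 0.48 for *Rps27* (adjusted p = 0.145, edgeR), 0.36 for *Rpl31* (adjusted p = 0.0832, edgeR) and 0.29 for *Rps4x* (adjusted p = 0.0961, edgeR). *Rpl7* and *Rps6* stayed called whichever of the 9 libraries was left out. Without wt/fl replicate 2 or wt/fl replicate 4, 4 members were called. Other short genes with a mean count of at least 100 showed nearly the same shift, with a median of 0.19, 143 of 160 above 0 and 11 called, all higher. Mitochondrial ribosomal protein genes had a median of 0.15 with 3 of 77 higher and 1 lower, other translation genes a median of 0.13 with 0 of 18 called (5 at an unadjusted p under 0.05, edgeR), and ribosome biogenesis genes a median of -0.04 with 0 of 27 called (4 at an unadjusted p under 0.05, edgeR). Of the outside ribosomal proteins, *Rps3a1* had a log2 fold change of 0.37 (adjusted p = 0.0676, edgeR) and *Rack1* of 0.03 (adjusted p = 0.945, edgeR).

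The starts of the called members are shown because the terminal oligopyrimidine tract is the feature the family shares. Windows of 30 bases hold 10 bases before the RefSeq start (GRCm38.p6) and 20 transcribed bases, in the direction of transcription. Capitals mark a run of at least 6 C or T bases that begins with C within 5 bases of the start.
Rps27, chr3:90213629-90213658, minus strand: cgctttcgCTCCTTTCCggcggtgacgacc
Rps6, chr4:86857348-86857377, minus strand: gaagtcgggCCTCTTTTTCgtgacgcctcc
Rpl28, chr7:4792955-4792984, plus strand: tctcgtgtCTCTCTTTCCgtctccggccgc
Rpl31, chr1:39367841-39367870, plus strand: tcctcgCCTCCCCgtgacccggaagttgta
Rps4x, chrX:102189372-102189401, minus strand: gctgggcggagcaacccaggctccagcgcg
Rps27l, chr9:66946076-66946105, plus strand: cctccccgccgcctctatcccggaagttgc
Rpl39l, chr16:10170218-10170247, plus strand: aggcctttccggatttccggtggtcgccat

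*Rps27*, *Rps6*, *Rpl28* and *Rpl31* have such a run and *Rps4x* does not, and *Rps27a*, *Rpl7* and *Rps29* were not matched. The windows of the paralogues *Rps27l* and *Rpl39l* hold runs of C and T that begin further than 5 bases from the annotated start, which are not counted. *Rps27l* also has a run within that distance, but of 5 bases, below the limit of 6. A second annotated start of *Rps27l* is not shown. Of the 60 members matched to a RefSeq start, 25 (41.7%) had such a run on the transcribed strand, against 11.9% of 27025 genes in the table. The letters CTTTC, which can lie within such a run, stood in the windows of 15 of the 60 members and of 4.43% of all genes. These are matches of letters in a window around an annotated start and say nothing of the start used in oocytes.

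In fl/del oocytes against wt/fl, edgeR called 0 of 78 members, where it called 0.0223% of all genes. DESeq2 also called 0 members (0.0938% of all genes), whereas edgeR without the filter on low counts called 3, all higher. At an unadjusted p under 0.05 there were 13 members, all higher (8.52% of all genes), and 71 of 78 had a log2 fold change above 0 with a median of 0.15 against 0.00 for all genes. The lowest p-values were those of *Rpl36a*, *Rpl31* and *Rps29*, which were chosen for this after their values were seen. *Rpl36a* was at 49.5, 45.1, 68.7 and 63.9 CPM in fl/del and at 42.1, 35.7, 39.6 and 45.7 CPM in wt/fl (0.49 ± 0.14, adjusted p = 0.322, edgeR), and *Rpl31* was at 97.4, 109, 116 and 111 CPM (0.42 ± 0.13, adjusted p = 0.322, edgeR), above the wt/fl libraries.

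In fl/del Spo11-Cre oocytes, in which *Kif11* was lowest, edgeR again called 0 of 78 members against wt/fl (0.197% of all genes), and so did DESeq2 (0.706% of all genes). Without the filter on low counts edgeR called 2, both higher. There were 11 members at an unadjusted p under 0.05, all higher (10.4% of all genes), and 73 of 78 lay above 0 with a median of 0.16 against 0.01 for all genes. *Rps27* had a log2 fold change of 0.55 (adjusted p = 0.208, edgeR) and *Rps6* of 0.32 (adjusted p = 0.189, edgeR). Mitochondrial ribosomal protein genes had a median of 0.07 and other short genes with a mean count of at least 100 of 0.12.

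The fl/del Spo11-Cre libraries were also compared with the groups that share the driver or the del allele. Against wt/fl Spo11-Cre, 0 of 78 members were called by edgeR (0.0357% of all genes) and by DESeq2 (0.0625% of all genes), 5 had an unadjusted p under 0.05, all lower (7.11% of all genes), and the median was -0.08. Against fl/del, 0 members were called by edgeR (0.241% of all genes) and by DESeq2 (0.407% of all genes), 0 had an unadjusted p under 0.05 in edgeR (8.32% of all genes), and the median was 0.03. The Spo11-Cre effect with the del allele less that without it, a contrast added after the data were seen, had a median of -0.21 over the members against -0.01 over all genes, with 8 of 78 above 0. At single members edgeR called 0 (0.103% of all genes) and 22 had an unadjusted p under 0.05, all lower (10.3% of all genes), so that the effect of Spo11-Cre was not shown to depend on the del allele at any single member. *Rps27a* had the largest size among the called members of wt/fl Spo11-Cre, at -0.79 (adjusted p = 0.0917, edgeR), and other short genes with a mean count of at least 100 had a median of -0.18 in this contrast.

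**Figure D3:**
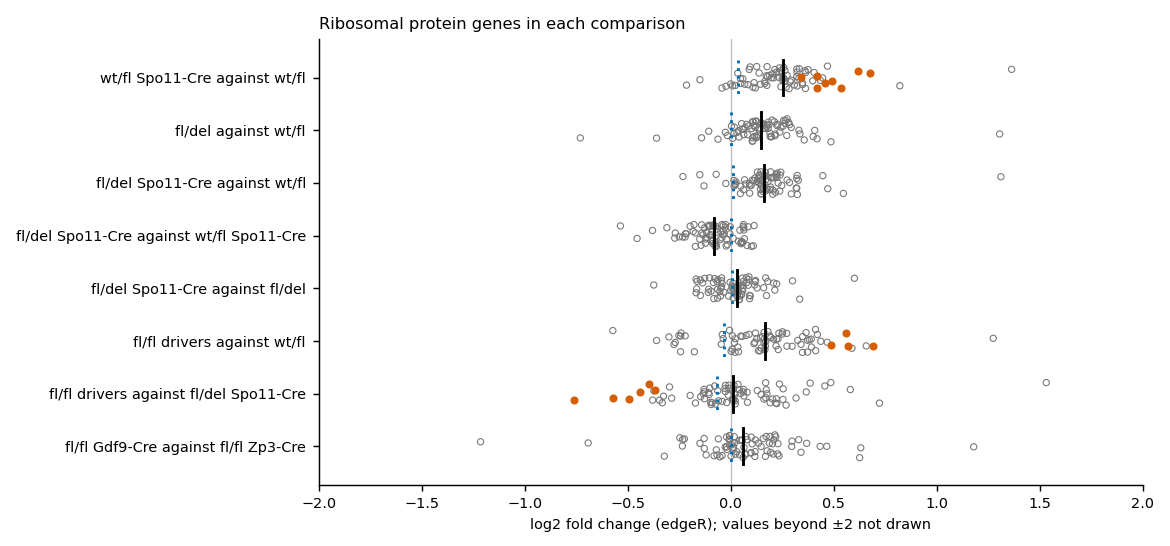
Log2 fold change (edgeR) of each tested member in the 8 comparisons, with filled points called at an adjusted p under 0.05, the black line the median of the members and the dotted blue line the median of all genes. The median lies at 0.25 in wt/fl Spo11-Cre against wt/fl and at -0.08 in fl/del Spo11-Cre against wt/fl Spo11-Cre, and values beyond ±2 (*Rpl24*) are not drawn.

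With the follicle drivers, taken as the mean of both fl/fl groups, some members were higher than in wt/fl and others lower than in fl/del Spo11-Cre. Against wt/fl, 4 of 79 members were called, all higher, where 2.79% of all genes were called and 1.02% were called higher. At an unadjusted p under 0.05 there were 24 members, 17 of them higher (14.3% of all genes). The median was 0.17 with 64 of 79 above 0, against -0.03 for all genes. Among the 79 is *Rpl24*, which passed the filter only with the fl/fl libraries and was at 0 in all wt/fl libraries. Its sign here was thus fixed in advance. Other short genes with a mean count of at least 100 had a median of 0.04 here, and mitochondrial ribosomal protein genes of 0.00 with 1 of 77 called higher and 1 lower. Of the ribosome biogenesis genes 2 of 27 were called, both lower, and of the other translation genes 1 of 18, lower.

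*Rpl37a* (chr1:72711290-72713813, plus strand), a zinc-binding protein of the large subunit, had 66.6 and 85.0 CPM in the Gdf9-Cre libraries and 74.6 and 46.4 CPM in the Zp3-Cre libraries, against 43.9, 41.5, 34.3 and 37.6 CPM in wt/fl. The groups did not overlap (0.69 ± 0.16, adjusted p = 0.00730, edgeR). *Rps15a* was at 97.2, 122, 140 and 71.9 CPM in the same order against 76.7, 60.2, 75.4 and 59.7 CPM (0.57 ± 0.15, adjusted p = 0.0207, edgeR), with overlap. *Rps20* was at 55.7, 79.5, 94.8 and 51.7 CPM against 45.9, 41.9, 50.9 and 39.8 CPM (0.56 ± 0.15, adjusted p = 0.0261, edgeR). *Rpl36*, chosen after its values were seen, was at 73.6, 111, 111 and 66.6 CPM against 59.9, 59.2, 62.6 and 60.8 CPM (0.49 ± 0.14, adjusted p = 0.0424, edgeR). In all 4 genes fl/fl Zp3-Cre replicate 2 was the lowest fl/fl library, and all 4 calls were lost without fl/fl Gdf9-Cre replicate 2 and also without fl/fl Zp3-Cre replicate 1, the fl/fl libraries with the high member shares. Without fl/fl Gdf9-Cre replicate 2, 2 members were called instead, 0 of them higher. Without fl/fl Zp3-Cre replicate 2, 18 members were called, and without fl/fl Gdf9-Cre replicate 1, 8. When the fit held no other groups, 1 member was called, and with libraries of a shared name prefix summed, 0, where wt/fl has 2 prefixes.

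By driver, 1 of 79 members was called in fl/fl Gdf9-Cre against wt/fl (1.48% of all genes), *Rpl37a* at 0.88 (adjusted p = 0.00588, edgeR). In fl/fl Zp3-Cre against wt/fl, edgeR called 0 of 79 members (2.27% of all genes). DESeq2 called 3, of which 2 were higher (3.78% of all genes). In edgeR 23 had an unadjusted p under 0.05, of which 14 were higher (13.1% of all genes). The 79 include *Rpl24* in each of the comparisons by driver. Between the Gdf9-Cre and the Zp3-Cre libraries, 0 of 79 members were called by edgeR (0.891% of all genes) and by DESeq2 (1.64% of all genes), 3 had an unadjusted p under 0.05 (7.14% of all genes), and the median was 0.06. Of the ribosome biogenesis genes 2 of 27 were called, *Ncl* at 0.60 and *Nop58* at 0.78 (adjusted p = 0.00840 for each, edgeR), both higher with Gdf9-Cre. With 2 libraries in each group, whose member shares overlap fully, small differences between members were not detectable.

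Against fl/del Spo11-Cre, the other group with little *Kif11*, 6 of 79 members were called in the fl/fl libraries, all lower, where 2.90% of all genes were called and 1.69% were called lower. At an unadjusted p under 0.05 there were 14 members, 4 of them higher (14.0% of all genes). The median of the members was 0.01 with 41 of 79 above 0, against -0.07 for all genes, and 5 of the 6 calls were large subunit genes. The 79 again include *Rpl24*, which passed the filter only with the fl/fl libraries.

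*Rps6* had 110 and 137 CPM in the Gdf9-Cre libraries and 129 and 89.4 CPM in the Zp3-Cre libraries, against 144, 183, 173 and 149 CPM in fl/del Spo11-Cre. It was lower by 0.57 on the log2 scale (SE 0.12, adjusted p = 0.00113, edgeR), without overlap, and was called under every alternative run for it. The wt/fl libraries, at 117 to 137 CPM, overlapped the fl/fl libraries and lay below those of fl/del Spo11-Cre. *Rpl35a* (chr16:33056453-33060189, plus strand), a large subunit protein, was at 40.1, 63.8, 68.96 and 56.3 CPM against 87.5, 102, 87.2 and 87.6 CPM and fell by 0.76 (SE 0.17, adjusted p = 0.00447, edgeR), but the wt/fl libraries, at 131, 77.1, 56.5 and 54.5 CPM, covered nearly the same range as both. *Rpl10* (chrX:74270812-74273135, plus strand), one of the last proteins to join the large subunit, was at 109, 120, 124 and 93.5 CPM against 143, 151, 169 and 129 CPM and fell by 0.50 (SE 0.11, adjusted p = 0.00522, edgeR). *Rpl19* fell by 0.44 (adjusted p = 0.0295, edgeR), *Rpl5* by 0.37 (adjusted p = 0.0116, edgeR) and *Rpl6*, chosen after its values were seen, by 0.40 (adjusted p = 0.0469, edgeR), each with overlapping ranges. Without fl/fl Gdf9-Cre replicate 1, only *Rps6* (-0.49) and *Rpl10* (-0.46) were called. When the fit held no other groups, 2 members were called, and with library totals in place of TMM or with name prefixes summed, 3. *Rpl6* stayed called in 1 of 8 fits that left out a library and *Rpl19* in 3 of 8. In these fl/fl libraries other short genes with a mean count of at least 100 had a median of -0.06 with 6 called higher and 7 lower of 160. The follicle markers had a median of 0.88 over 14 tested, with 0 called and 3 at an unadjusted p under 0.05 in edgeR, and their sum was 408 to 556 CPM in fl/fl against 449 to 499 CPM in fl/del Spo11-Cre. Their part in the member values was not tested.

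**Figure D4:**
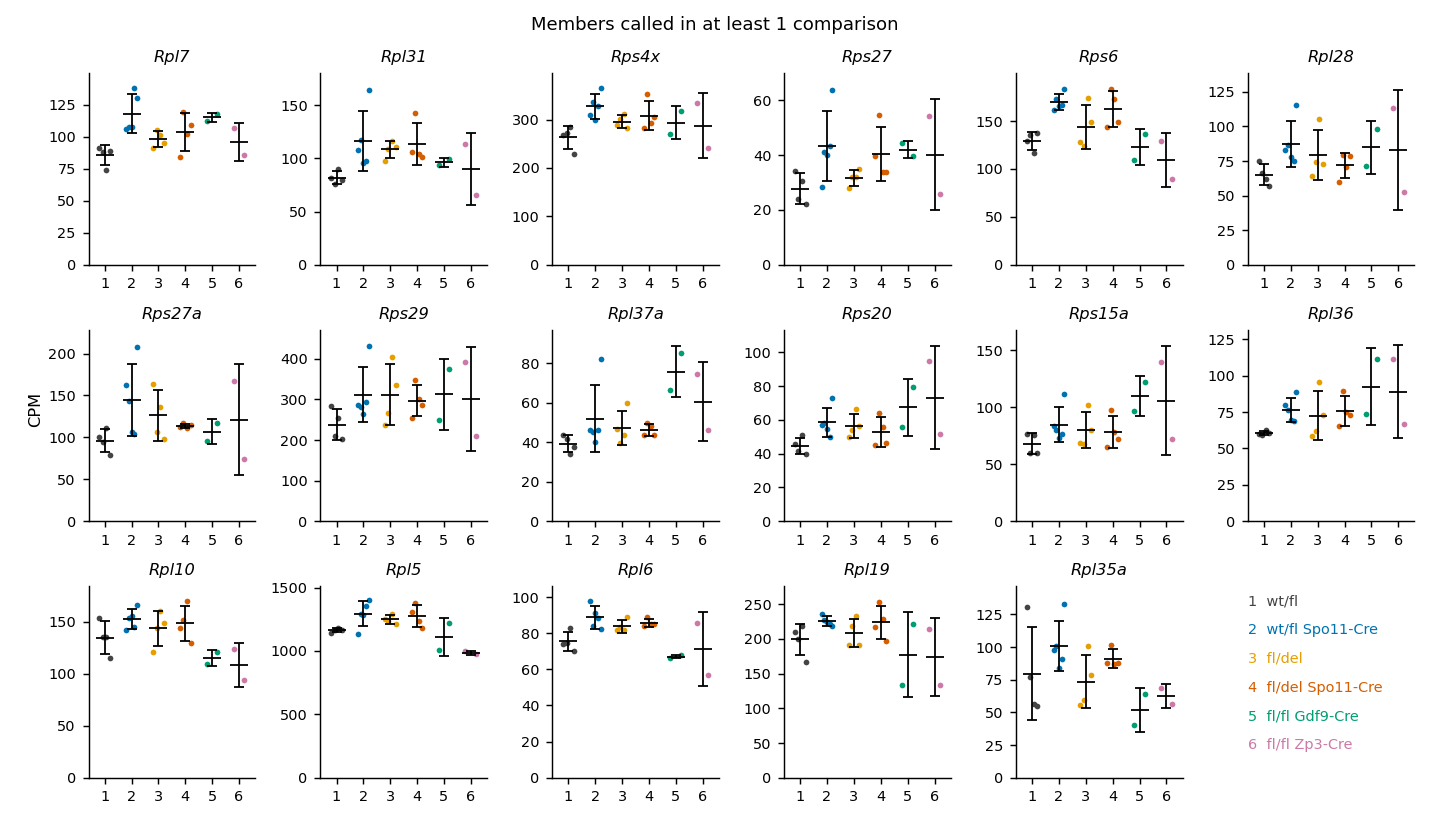
CPM of each member called in at least 1 comparison, by group (1 to 6 as listed in the last panel), with each point a library and the black marks the mean ± SD. *Rpl7* and *Rps6* separate wt/fl (1) from wt/fl Spo11-Cre (2) without overlap, while in most panels 1 library of a group, often wt/fl Spo11-Cre replicate 5, lies well above its group.

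Members differed in how steady they were. Among the 74 members with a mean count of at least 100, the SD of log2 CPM over the 21 libraries had a median of 0.25. *Rpl4*, which helps line the exit tunnel, was the steadiest at 0.08 and ranged from 290 to 370 CPM, followed by *Rplp0* (0.13) and *Rpl5* (0.14). *Rpl7a* was the most variable at 0.81 and ranged from 4.91 to 39.5 CPM, with values of 16.2, 7.38, 5.91 and 24.1 CPM within wt/fl alone. *Rpl35a* (0.44) and *Rpl38* (0.42), the latter known for its part in translating Hox mRNAs, followed. *Rpl38* ranged from 29.2 CPM in wt/fl Spo11-Cre replicate 2 to 88.6 CPM in fl/fl Zp3-Cre replicate 1. In no comparison did edgeR call *Rpl4*, *Rplp0*, *Rpl7a* or *Rpl38*, and *Rpl5* and *Rpl35a* were called in the comparison of fl/fl with fl/del Spo11-Cre alone.

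The copies differed from pair to pair in how much of the counts they took. The share of a copy is its percent of the counts of its pair in a library. *Rpl39l* (chr16:10170226-10174911, plus strand) made up 44.3%, 49.8%, 52.5% and 45.7% of the *Rpl39* pair in wt/fl, 45.6%, 43.9%, 48.8%, 49.8% and 38.8% in wt/fl Spo11-Cre, and 47.2%, 44.5%, 52.3% and 44.4% in fl/del. It made up 44.7%, 43.7%, 44.8% and 47.2% in fl/del Spo11-Cre, 44.4% and 39.8% in fl/fl Gdf9-Cre and 41.2% and 43.8% in fl/fl Zp3-Cre. By TPM, which allows for length, the share of *Rpl39l* ran from 52.2% to 65.6% over all libraries, with a mean of 59.0%. This depends on the length used. The exons of *Rpl39l* and *Rpl39* cover 831 and 1434 bases, but their principal transcripts have 550 and 612. Per kilobase of principal transcript, *Rpl39l* was at 277 and *Rpl39* at 267.5 CPM in wt/fl. The values thus do not show which copy is the major one.

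*Rps27l* (chr9:66946086-66949516, plus strand) took most of the counts of its pair. Its share was 85.4%, 83.2%, 86.0% and 84.2% in wt/fl, 87.2%, 83.4%, 80.6%, 81.1% and 80.0% in wt/fl Spo11-Cre, and 85.0%, 85.3%, 85.1% and 83.7% in fl/del. It was 79.9%, 79.9%, 83.2% and 81.3% in fl/del Spo11-Cre, 81.1% and 88.0% in fl/fl Gdf9-Cre and 83.1% and 84.4% in fl/fl Zp3-Cre. In CPM *Rps27l* ranged from 118 to 292 and *Rps27* from 22.2 to 63.7. Since 98.4% of the windows of *Rps27* and 0% of those of *Rps27l* are shared with other genes and only unique reads were counted, counts of *Rps27* may be too low, which was not tested.

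*Rpl10l* (chr12:66283379-66284401, minus strand), the autosomal copy of the X-linked *Rpl10*, was detected in every library but made up only 0.136% to 2.74% of its pair, with 0.156 to 3.74 CPM against 93.5 to 169 CPM for *Rpl10*. In wt/fl it was at 2.38, 0.314, 1.061 and 0.156 CPM and in wt/fl Spo11-Cre at 2.54, 2.61, 2.55, 3.48 and 1.38 CPM. The share was 0.670% ± 0.640 in wt/fl (SD, n = 4) and 1.64% ± 0.541 in wt/fl Spo11-Cre (n = 5). *Rpl3l*, the muscle copy, made up 0% of the *Rpl3* pair in all libraries, in which the pair had 247 to 865 counts.

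Of the copies outside the member rule, *Rps4l* made up 17.6% to 30.8% of its pair with *Rps4x*. Its share was 25.9%, 26.0%, 26.0% and 30.8% in wt/fl and 24.0%, 20.8%, 25.6%, 20.5% and 17.6% in wt/fl Spo11-Cre, without overlap. *Rpl22l1*, the RNA-binding copy of *Rpl22*, made up 10.7% to 43.3%, both extremes being in the groups wt/fl and wt/fl Spo11-Cre, and the pair held only 180 to 570 counts. *Rpl7l1* made up 15.3% to 27.0% and *Rpl36al* 4.68% to 13.3% of their pairs. *Rpl36al* stood at 11.3% ± 1.78 in wt/fl and 7.88% ± 1.98 in wt/fl Spo11-Cre. The proteins of *Rpl7* and *Rpl7l1* are only 40.7% identical, and their shares do not show that they are interchangeable. Shared windows differed within these pairs too: 34.8% for *Rps4x* and 2.03% for *Rps4l*, 0% for *Rpl22* and 50.8% for *Rpl22l1*. They were 28.2% for *Rpl7* and 2.23% for *Rpl7l1*, 83.6% for *Rpl36a* and 59.0% for *Rpl36al*. For *Rpl10* and *Rpl10l* they were 91.6% and 0%. Lost reads may shift these shares, which was not tested.

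The shares of 7 pairs in the 5 other groups were compared with wt/fl in 35 two-sided exact permutation tests, and the lowest p after Benjamini-Hochberg adjustment over the 35 was 0.333. Without adjustment 3 comparisons had p under 0.05, all of wt/fl Spo11-Cre with wt/fl: *Rps4l*, lower by 5.48 percentage points (exact permutation p = 0.0159), *Rpl10l*, higher by 0.969 points (exact permutation p = 0.0317), and *Rpl36al*, at 7.88% against 11.3% (exact permutation p = 0.0476). The counts of the copies themselves were not called: *Rps4l* had a log2 fold change of -0.09 (adjusted p = 0.756, edgeR) where *Rps4x* rose, *Rpl36al* of -0.08 (adjusted p = 0.962, edgeR) and *Rpl10l* of 1.36 (adjusted p = 0.240, edgeR). The smallest p these designs allow is 0.0159 with 5 against 4 libraries, 0.0286 with 4 against 4 and 0.133 with 2 against 4. After adjustment over 35 tests even a pair that separated completely could not pass on its own, so these tests do not show that the shares were alike. For *Rpl39l* and *Rps27l*, the copies with the largest shares of counts, the group means differed from wt/fl by -5.95 to -0.986 and by -3.57 to 0.0842 percentage points.

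**Figure D5:**
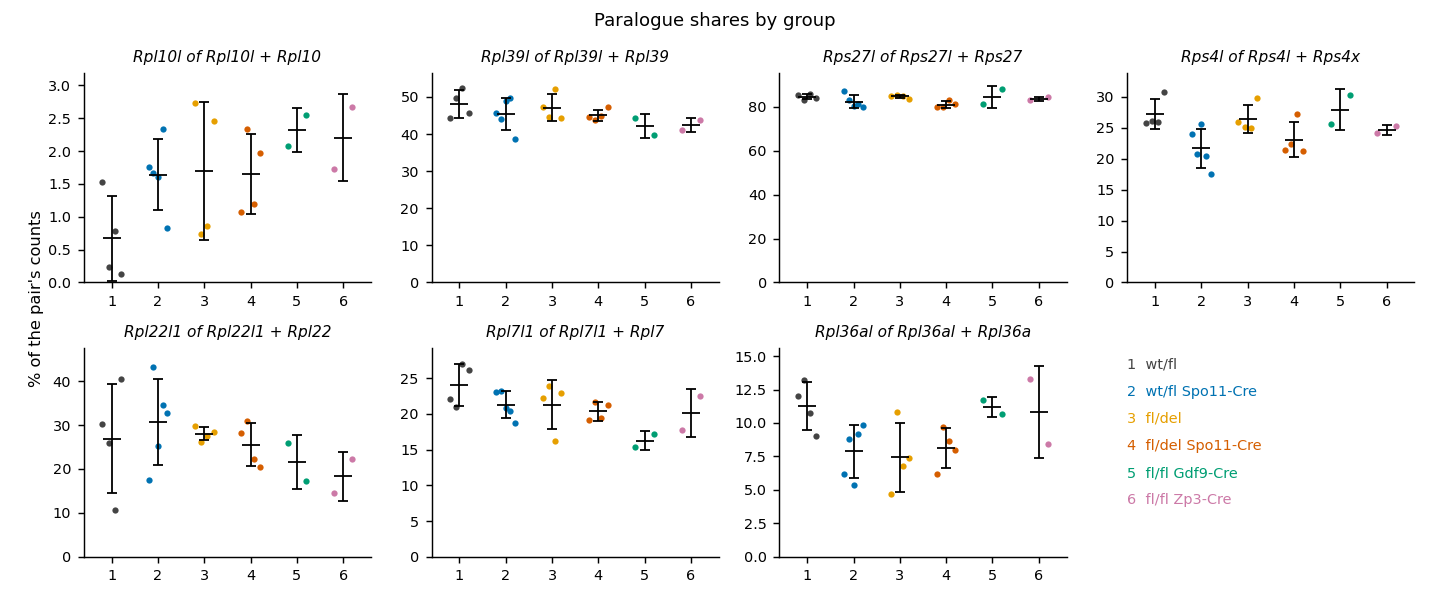
Percent of the counts of each pair that fell to the paralogue named first, by group (1 to 6 as listed in the last panel), with each point a library and the black marks the mean ± SD. *Rps27l* lies between 79.9% and 88.0% and *Rpl39l* between 38.8% and 52.5% in all libraries, whereas *Rpl10l* stays under 2.74%.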

How the data were processed

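Full-length cDNA was made from poly(A) RNA with the SMART-seq v4 kit (13 PCR cycles), tagmented with Nextera XT (12 cycles) and read as 150 bp pairs. Per the labels and methods, the authors used fastp for trimming, HISAT2 2.2.1 for alignment (GRCm38) and featureCounts 2.0.3 with Ensembl release 93 to assign the reads that mapped uniquely to genes. The deposited counts are whole numbers without normalization. The deposited TPM values were computed by the authors with a method not given in the sources used here. All-exon counts were used. For the members they were 1.922 times (median) those of a second run that counted *Kif11* over exon 22 alone, for a reason not given in the sources used here. The PCR reads carry no molecular identifiers.

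Gene symbols, biotypes and coordinates came from GENCODE M21 (54079 of 54232 identifiers matched), and start windows from RefSeq. The members, gene lists and tests were chosen with earlier results of these data known. Genes named in the text are the 8 highest and 8 lowest members by wt/fl TPM, up to 3 called members per direction and comparison with the largest fold change, both genes of 8 paralogue pairs, the 3 most and 3 least variable members with a mean count of at least 100, members that failed the filter, and *Rps3a1*, *Fau* and *Rack1*. Some genes under this rule are not reported here. Others are marked as chosen after their values were seen.

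Counts were tested with edgeR 4.0.16 in R 4.3.3 (TMM, glmQLFit and glmQLFTest, Benjamini-Hochberg over the genes counted above 0 in 3 or more libraries of the fit), which was also tested on simulated data. DESeq2 1.42.0 was an alternative. Variability used log2(CPM + 0.5). Shares were compared with exact permutation tests in scipy 1.17.1. Libraries were taken as replicates. The 30 pairs of replicates differed by more than sampling noise (chi-square per degree of freedom 9.9 to 32.2). Members share reads with pseudogenes and, for 37 members, exon bases with other genes, and the strandedness of the counting is not given in the sources used here.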

Additional observations from a re-analysis of the deposited data

Results flagged for a closer look

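In 200 tests of a group of 4 or 5 libraries for a library far from the others (Dixon's gap against range), 18 values stood apart, of which those reported are given here, and chance alone gives about 1 in 20 groups. In wt/fl Spo11-Cre replicate 5, the member share of counts was 1.28% against 1.01% to 1.08% in the other libraries of its group. In the same library *Rps29* was at 432.0 CPM (others 263 to 294), *Rplp1* at 207 CPM (others 137 to 152), *Rpl27a* at 33.9 CPM (others 19.4 to 22.1), *Rps15a* at 112 CPM (others 72.9 to 83.9), *Rpl37a* at 81.9 CPM (others 40.0 to 46.4) and *Rpl38* at 75.6 CPM (others 29.2 to 42.3). *Rpl23a* was low in wt/fl Spo11-Cre replicate 4, at 5.48 CPM against 7.33 to 7.97 CPM.

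In wt/fl, *Rps4l* made up 30.8% of its pair in replicate 4 (others 25.9% to 26.0%), *Rpl7* was at 73.8 CPM in replicate 3 (others 88.5 to 91.2) and *Rpl4* at 342 CPM in replicate 3 (others 290 to 295). In fl/del, *Rpl9* was at 3.39 CPM in replicate 1 (others 0.954 to 1.11), *Rpl36al* at 2.43 CPM in replicate 1 (others 4.997 to 5.49) and *Rps4l* at 120 CPM in replicate 4 (others 101 to 104). In fl/del Spo11-Cre replicate 2, *Rpl31* was at 143 CPM (others 102 to 106) and *Rpl35a* at 102 CPM (others 87.2 to 87.6). *Rpl24* was at 0.120 CPM in fl/del Spo11-Cre replicate 3 and at 0 in the other libraries of that group.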

How the results depend on the processing

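Of 472 alternative values, 444 stayed within the limits set for a change, 28 moved and 0 reversed. In wt/fl Spo11-Cre against wt/fl, 8 members were called, 19 without the filter on low counts, 5 with all 21 libraries in one fit and 2 to 12 when a library was left out. Without the filter the 0 calls against wt/fl became 3 for fl/del and 2 for fl/del with Spo11-Cre. In the fl/fl drivers against wt/fl, the 4 calls became 10 without the filter (9 higher), 11 with library totals in place of TMM (all higher) and 9 with DESeq2 (8 higher). They became 1 with only the groups compared, 0 with libraries of a shared name prefix summed and 0 to 18 when a library was left out. Against fl/del Spo11-Cre, the 6 calls became 3 with library totals, 2 with only the groups compared, 3 with name prefixes summed and 2 to 9 when a library was left out. Counts of the exon 22 run, an alternative chosen after seeing the data, moved no count of calls. The cause of these changes was not tested.

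With the replicate number as a block, the calls against wt/fl were 5 in the wt/fl Spo11-Cre libraries and 3 with fl/del alone. They were 3 once Spo11-Cre was added to fl/del, and 8 (7 higher) for the fl/fl drivers. They were 6 for the fl/fl drivers against fl/del Spo11-Cre and 0 in the other 3 comparisons. The numbers share no stated origin: the deviations of 42 pairs of same-numbered libraries had a median correlation of 0.000929 (-0.315 to 0.245).

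The member share relative to wt/fl ran from 109.6% to 116.9% in wt/fl Spo11-Cre when a library was left out, and from 86.2% to 132.9% in fl/fl Zp3-Cre. The alternative fits gave 322 values for the 18 calls, of which all kept their direction and 237 stayed called. Of 266 alternative differences in paralogue share, 15 changed sign, all uncalled. Shared sequence limits levels between genes, and 2 libraries a driver limit the fl/fl comparisons.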
